A study of Mus musculus with 4 samples.

Results

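The suppressor of cytokine signalling (SOCS) family was examined in regulatory T (Treg) cells, the Foxp3-expressing CD4 T cells that hold immune responses in check. The family comprises Socs1 to Socs7 and Cish. Its members were the rows of the deposited count table carrying those names, 8 of 20837 genes, and the gene number of each row belonged to the same symbol in RefSeq. The RNA came from spleen Treg cells of mice in 2 groups with 2 libraries each. Both groups carried the Foxp3YFP-Cre allele, in which Foxp3 drives a Cre recombinase with a yellow fluorescent protein. The control group, WT, had the genotype Foxp3YFP-CreKmt2d+/+ with intact Kmt2d. The other group, cKO, had Foxp3YFP-CreKmt2dfl/fl, in which Cre deletes a loxP-flanked part of Kmt2d, a histone H3 lysine 4 methyltransferase gene, in cells that express Foxp3. The labels give no age, sex or treatment for these animals. Nor do they say that each library is a different mouse, and the p-values therefore reflect variation among 4 libraries that may be technical only.

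SOCS proteins are feedback inhibitors of cytokine signalling. A cytokine receptor activates JAK kinases, these phosphorylate STAT transcription factors, and the STATs switch on SOCS genes, whose products then act back on the same receptors. Each member has an SH2 domain that binds phosphotyrosine and a SOCS box that recruits elongins and Cullin 5 to form a ubiquitin ligase, and SOCS1 and SOCS3 also carry a short region that blocks JAK catalysis. In Treg cells, which depend on interleukin 2 and STAT5, CIS (the Cish product) restrains interleukin 2 and T cell receptor signalling, and SOCS1 is known to guard the cells against interferon gamma.

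Start-site sequences are shown for the members that fell and for which the RefSeq promoter table (GRCm38.p6, the assembly of mm10) held an entry with a STAT or interferon-type motif. The table, which covers 250 bases before to 50 bases after a start, held 4 of the 8 members, Socs1, Socs3, Socs4 and Cish. The motif TTCNNNGAA, the core bound by STAT dimers, reads the same on both strands and occurs in 8.3% of the 32851 windows of this length. Cish held it at 2 places, and 0.457% of all windows have 2 or more. Socs3 held it at 1 place. A core bound by interferon regulatory factors, GAAA followed by any 2 bases and again GAAA, was searched on both strands and occurs in 3.44% of windows. Socs1 held 2 overlapping copies, and 0.225% of windows have 2 or more. Socs4 held neither motif in its window. Capitals mark the motifs in these sequences, printed on the strand of the gene, and a match describes letters only. The Socs1 stretch lies outside annotated exons, the Socs3 site lies outside exons upstream of an inner start of the gene, and the Cish site lies in exons of annotated transcripts.
Cish, chr9:107296654-107296683, plus strand, positions -5 to 25 from the start: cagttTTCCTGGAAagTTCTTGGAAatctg
Socs3, chr11:117969502-117969530, minus strand, positions -164 to -136: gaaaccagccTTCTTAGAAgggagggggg
Socs1, chr16:10785537-10785786, minus strand, positions -250 to -1: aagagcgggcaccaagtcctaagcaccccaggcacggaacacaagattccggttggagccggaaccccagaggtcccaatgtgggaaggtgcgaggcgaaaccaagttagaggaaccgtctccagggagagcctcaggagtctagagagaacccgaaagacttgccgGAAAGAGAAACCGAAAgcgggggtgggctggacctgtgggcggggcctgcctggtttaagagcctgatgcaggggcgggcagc

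Depth ran from 28442416 to 35560491 counts per library. Levels are CPM, counts scaled to library size with edgeR's TMM factors. Kmt2d stood at 721 and 704 CPM in WT and at 836 and 793 CPM in cKO, but reads from its undeleted exons enter this value, which therefore checks no label. The labels' extraction protocol describes cultured macrophages of another knockout, against their own tissue and cell type fields. The Treg-defining gene Foxp3 stood at 278 and 250 CPM in WT and at 170 and 180 CPM in cKO. Of 8 Treg markers, Foxp3 among them, 4 fell, 1 (Il2ra) rose and 3 did not pass, and their sums overlapped between the groups (3560 and 2790 CPM in WT, 2430 and 3030 CPM in cKO). Summed markers measured 5590 to 7380 CPM for 14 pan T cell genes and 629 to 1020 CPM for 11 macrophage genes in each library, and the pan T cell sum was the highest of 9 marker lists in all 4. The groups differed in other cell types' transcripts. All 11 neutrophil markers rose, from a sum of 60.1 and 183 CPM in WT to 603 and 1320 CPM in cKO. All 7 basophil and mast cell markers rose as well, from 2.77 and 6.76 to 26.2 and 46.3 CPM, as did 7 of 8 CD8 T and NK cell markers, from 130 and 150 to 194 and 207 CPM. Of the 14 pan T cell markers 10 fell, 0 rose, and their sum went from 7380 and 7050 to 5590 and 6050 CPM. The part of these shifts in the results below was not tested, and in bulk RNA fewer cells of a type and less RNA per cell cannot be told apart.

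All 8 members passed the filter on low counts, and they split in 3 ways. Socs2 rose about 3-fold in the libraries labelled cKO, Socs3, Cish, Socs1 and Socs7 fell, and Socs4, Socs5 and Socs6 did not pass the test. The comparison was edgeR's quasi-likelihood test, adjusted by Benjamini-Hochberg over all 13861 genes tested, with calls at an adjusted p under 0.05. By this rule 31.6% of all tested genes were called, 16.5% higher and 15.1% lower in cKO, beside 5 of the 8 members, 1 higher and 4 lower. Without WT 1 or without cKO 1, 3 members were called, Socs2, Socs3 and Cish. The median log2 fold change of the members was -0.18, beside 0.0003 for all genes tested. The groups did not overlap for any of the 8 members, but neither did they for 66% of all tested genes.

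Socs2 encodes a regulator of growth hormone signalling, and it was the member that rose. The gene (number 216233) lies on the minus strand of chromosome 10, from 95383903 to 95417321 in RefSeq's GRCm38.p6, the source of all gene positions given here. Its level was 21.2 and 25.4 CPM in WT and 72.5 and 64.7 CPM in cKO. Both cKO libraries lay far above both WT libraries, and the pairs within a group were close. The log2 fold change was 1.56 (SE 0.10, edgeR adjusted p = 0.00235), a 2.95-fold higher level, larger in size than the change of 96% of tested genes. Neutrophil marker sums were also higher in both cKO libraries (60.1 and 183 CPM in WT, 603 and 1320 CPM in cKO). So were those of basophils and mast cells, CD8 T and NK cells, B cells and dendritic cells (139 and 141 CPM in WT, 205 and 195 CPM in cKO for dendritic cells). Macrophage marker sums overlapped between the groups (629 and 863 CPM in WT, 1020 and 843 CPM in cKO). Of the 11 macrophage markers only Lyz2 was called (261 and 286 CPM in WT, 584 and 544 CPM in cKO). The other 10 did not pass, and the median log2 fold change of the list was -0.39. The part of any of these transcripts in the Socs2 level was not tested. Of the receptors SOCS2 is best known for, the growth hormone receptor gene Ghr had 0 to 2 counts per library and was not tested. The prolactin receptor gene Prlr was near the lower limit of detection, at 0.403 and 0.295 CPM in WT and 1.48 and 1.07 CPM in cKO. Its log2 fold change was 1.84 (SE 0.34, edgeR adjusted p = 0.0121), and the call ended with DESeq2 (adjusted p = 0.0574) and without WT 1 (edgeR adjusted p = 0.0543), WT 2 (0.0631) or cKO 1 (0.0708).

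Socs3, which encodes the inhibitor of receptors built on the gp130 chain such as the interleukin 6 receptor, had the largest fall of the family. The gene (number 12702) lies on the minus strand of chromosome 11, from 117966079 to 117970336. Its levels were 308 and 273 CPM in WT and 90.9 and 135 CPM in cKO. Both WT libraries were at least 2-fold above both cKO libraries, and the cKO pair was spread more widely, relative to its mean, than either pair of any other member. The log2 fold change was -1.36 (SE 0.18, edgeR adjusted p = 0.00574), a 2.57-fold lower level. Without cKO 1, the lower library, the log2 fold change was -1.11, and without cKO 2 it was -1.68, with the call kept in both fits (edgeR adjusted p = 0.00317 and 0.000619).

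Cish encodes CIS, a STAT5-induced inhibitor that binds interleukin 2 receptor and phospholipase C gamma complexes. The gene (number 12700) lies on the plus strand of chromosome 9, from 107296659 to 107302784. The transcript measured 208 and 179 CPM in WT and 117 and 127 CPM in cKO. All WT values were above all cKO values. The log2 fold change was -0.66 (SE 0.09, edgeR adjusted p = 0.00549), a 1.58-fold lower level. The annotated exons of Cish overlap those of Gm17040 and Gm17041 on the opposite strand, which were not analysed here, and reads of these would count for Cish if strand was not used.

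Socs1 (gene number 12703, minus strand of chromosome 16, from 10783808 to 10785536), the inhibitor of interferon and common gamma chain cytokine signals, measured 44.9 and 42.7 CPM in WT and 34.6 and 36.2 CPM in cKO. The cKO values were lower, though far less so than for Socs3. The log2 fold change was -0.31 (SE 0.06, edgeR adjusted p = 0.0140), a 1.24-fold lower level. The call ended without WT 1 (edgeR adjusted p = 0.0828) or cKO 1 (0.0821). Socs7 (gene number 192157, plus strand of chromosome 11, from 97362292 to 97398542), whose product binds the adaptor Nck and insulin receptor substrates, measured 69.0 and 65.4 CPM in WT and 57.0 and 58.4 CPM in cKO. Its log2 fold change of -0.22 (SE 0.05, edgeR adjusted p = 0.0276) was the smallest called change in the family. That call ended with DESeq2 (adjusted p = 0.0732) and in 3 of the 4 edgeR fits that leave out a library, with adjusted p = 0.134 lacking WT 1, 0.147 lacking cKO 1 and 0.113 lacking cKO 2.

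The other 3 members, Socs4 on chromosome 14, Socs5 on chromosome 17 and Socs6 on chromosome 18, did not pass. Socs4, known from growth factor receptor signalling, measured 65.0 and 63.0 CPM in WT and 72.5 and 70.1 CPM in cKO, a log2 fold change of 0.16 (95% interval 0.03 to 0.28, edgeR adjusted p = 0.0681). With upper-quartile scaling Socs4 was called (log2 fold change 0.18, edgeR adjusted p = 0.0454). Socs5, also a regulator of the epidermal growth factor receptor and of interleukin 4 signals, measured 32.4 and 32.7 CPM in WT and 29.8 and 28.9 CPM in cKO. Its log2 fold change was -0.15 (95% interval -0.30 to 0.00, edgeR adjusted p = 0.113). Socs6, which binds the kinases Kit and Lck, measured 29.8 and 29.3 CPM in WT and 30.7 and 29.9 CPM in cKO. The 95% interval of its log2 fold change, -0.11 to 0.18, leaves out a change of the size seen for Cish, Socs2 or Socs3 (edgeR adjusted p = 0.735).

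**Figure D1:**
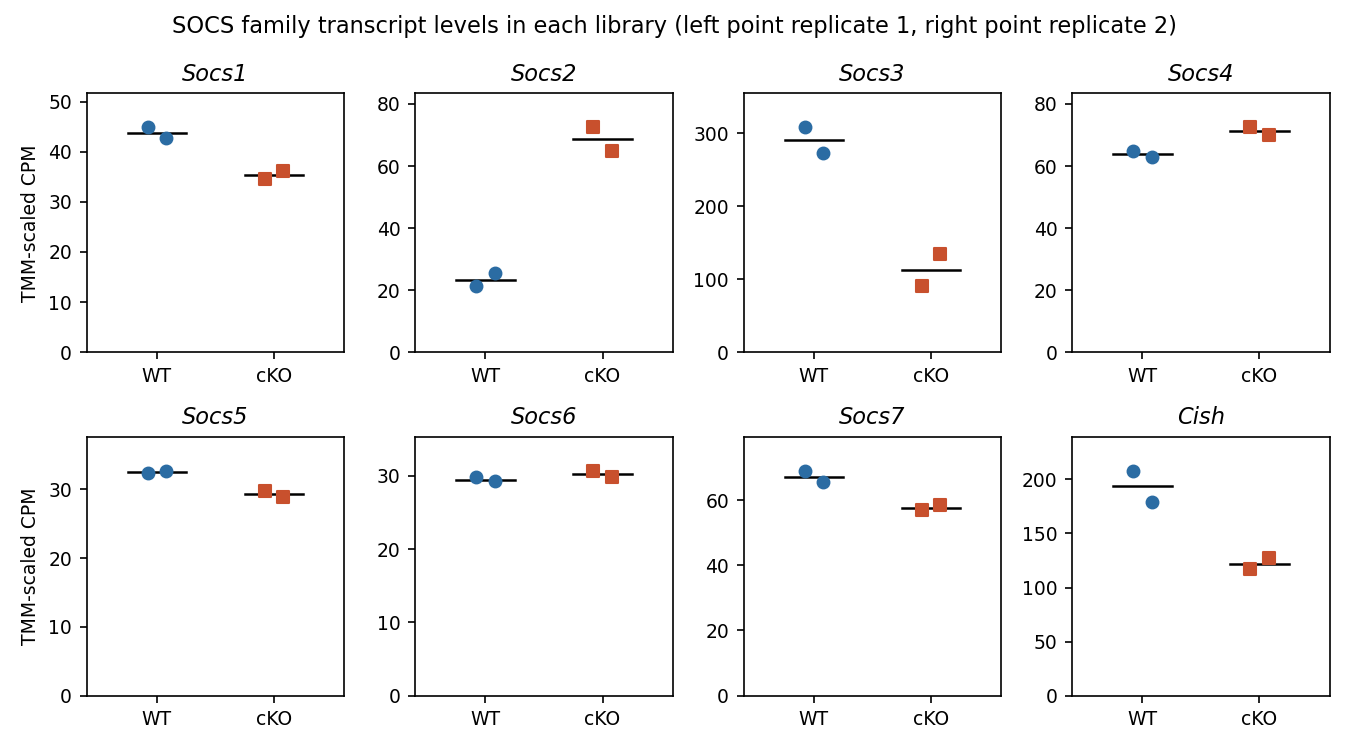
TMM-scaled CPM (vertical axis, from 0, 1 scale per gene) of each SOCS family member in the 2 WT (circles) and 2 cKO (squares) libraries, with bars at group means. Socs2 goes from 23.3 to 68.6 CPM on average, Socs3 from 290 to 113 CPM and Cish from 194 to 122 CPM, while Socs6 stays near 30 CPM in all 4 libraries.

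**Figure D2:**
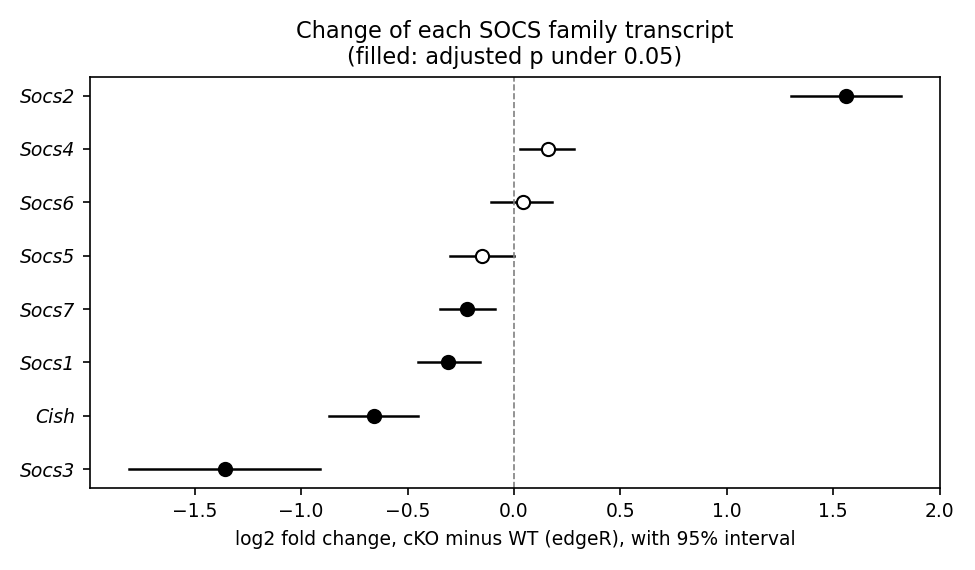
Log2 fold change of cKO against WT (horizontal axis) for each member, with lines for the 95% interval from edgeR's fit and filled points for an adjusted p under 0.05. Socs2 (1.56) stands on 1 side of 0, and Socs3 (-1.36), Cish (-0.66), Socs1 (-0.31) and Socs7 (-0.22) on the other.

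Between genes, levels were compared per kilobase of annotated exon. Socs3 was the most abundant member, with 106 and 94.4 CPM per kb in WT and 31.5 and 46.6 in cKO, at the 95.7th percentile of 12851 tested genes with a known length when averaged over the 4 libraries. Cish followed with 32.3 and 28.0 CPM per kb in WT and 18.2 and 19.9 in cKO. Socs3 exceeded Cish in every library, although the lowest Socs3 value (31.5) lay below the highest Cish value (32.3). Socs1 came next at 11.9 to 15.4 CPM per kb, apart from both neighbours with these lengths. Socs4 (9.17 to 10.5) and Socs7 (7.85 to 9.50) overlapped each other. Socs2 was the member whose rank turned on the group, at 2.22 and 2.66 CPM per kb in WT and 7.61 and 6.79 in cKO. It lay below Socs5 (4.50 to 5.10) in both WT libraries and above it in both cKO libraries, while Socs6 was lowest on average, at 2.58 to 2.70. The union of annotated Socs2 exons, 9531 bases, exceeds its longest transcript, 4242 bases, and with transcript lengths its mean over the 4 libraries moved from 4.82 to 10.8 CPM per kb and from the sixth to the fourth place. With those lengths Socs2 (5.0 and 5.99 CPM per kb in WT, 17.1 and 15.2 in cKO) overlapped Socs1, below it in both WT libraries and above it in both cKO libraries.

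**Figure D3:**
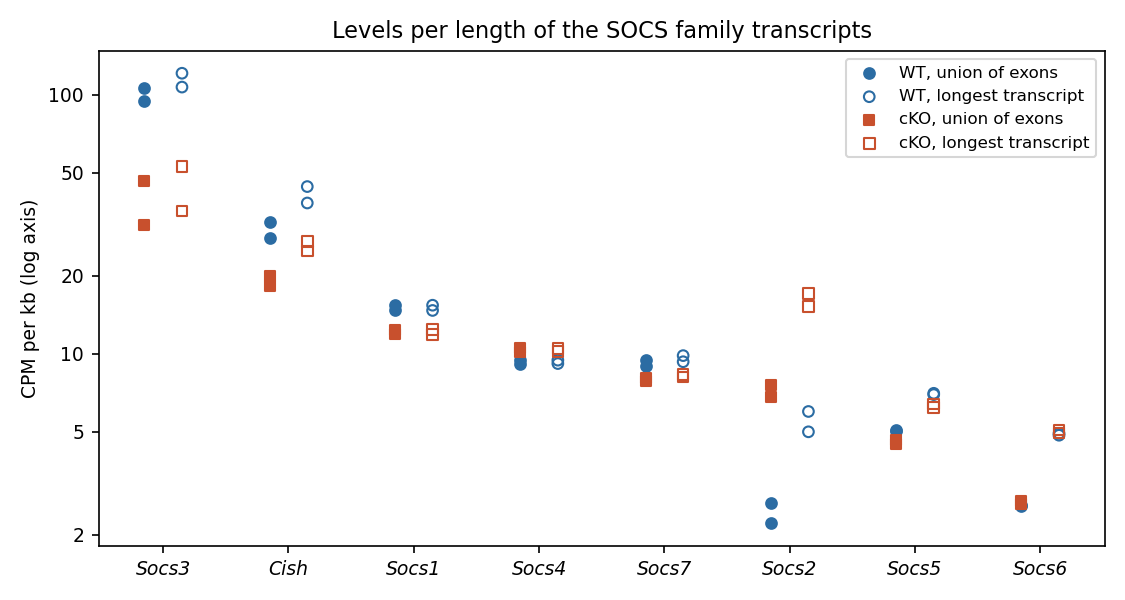
CPM per kilobase (vertical log axis) of each member in each library, with the length taken as the union of exons (filled) or the longest transcript (open), circles for WT and squares for cKO. Socs3 and Cish lead in either case, and Socs2 in cKO rises from 6.79 and 7.61 to 15.2 and 17.1 when its longest transcript is used.

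The make-up of the family's transcript pool shifted with these changes. The summed level of the 8 members was 183 and 166 CPM per kb in WT and 94.9 and 111 in cKO, lower in both cKO libraries. Socs3 alone made up 58.2% and 57.0% of this pool in WT and 33.1% and 42.0% in cKO. Cish kept a like share, 17.7% and 16.9% in WT and 19.2% and 17.9% in cKO. Socs2 went from 1.21% and 1.61% to 8.02% and 6.11%, or from 2.31% and 3.05% to 14.3% and 11.1% when each gene's longest transcript gives its length. Within libraries, and without regard to length or scaling, there were 9.79 and 7.07 Cish counts for each Socs2 count in WT and 1.61 and 1.97 in cKO. Socs3 counts outnumbered Socs1 counts by 6.85 and 6.40 to 1 in WT and by 2.63 and 3.73 to 1 in cKO. The shares follow from the levels above and were not tested separately.

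**Figure D4:**
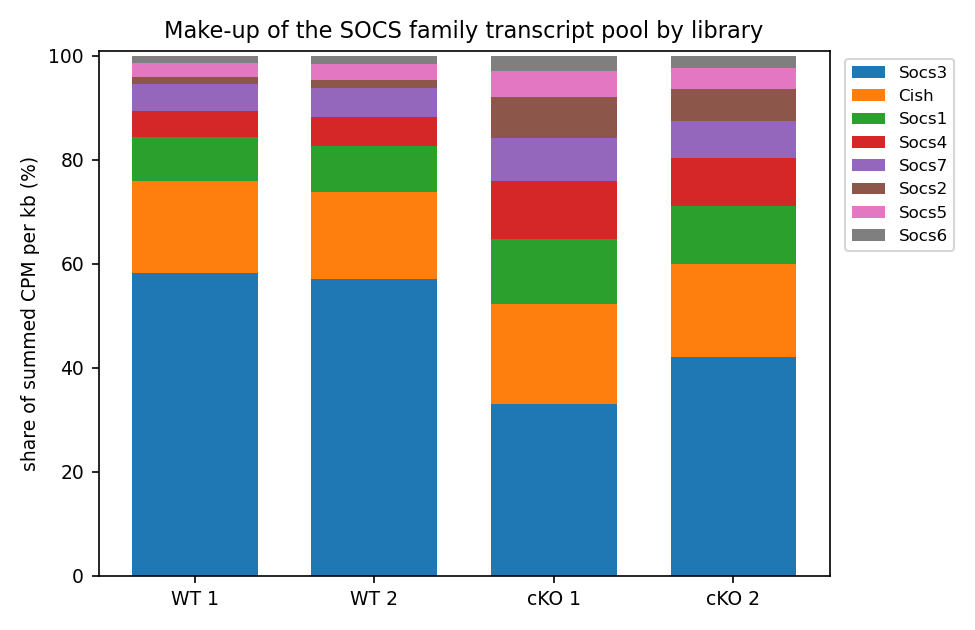
Share of the family's summed CPM per kb (vertical axis, percent) held by each member in each library, stacked from the most abundant. Socs3 and Cish together hold 75.8% and 73.9% in the WT and 52.3% and 59.9% in the cKO libraries.

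Genes with a pattern over the 4 libraries close to that of Socs2 or Socs3 were sought by Euclidean distance. The distance was taken between log2 CPM values centred on each gene's mean. The search covered 9615 tested genes whose mean reached 5 CPM, leaving out symbols of predicted genes, clones, pseudogenes and mitochondrial genes. Closest to Socs2 were Arhgap21, a GTPase activating protein gene (distance 0.101, log2 fold change 1.46), the fibronectin gene Fn1 (0.104, 1.62) and the guanylate binding protein gene Gbp2b (0.115, 1.59). Closest to Socs3 were the transcription factor gene Bhlhe40 (distance 0.0502, log2 fold change -1.40), Mir155hg, the host transcript of microRNA 155 (0.0566, -1.35), and the chromatin gene Cbx7 (0.0593, -1.42). Bhlhe40 measured 666 and 572 CPM in WT and 192 and 278 CPM in cKO, with the same lower cKO library as Socs3. With 4 libraries in 2 groups, this likeness rests on the group difference and the spread within 2 pairs.

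Upstream of the family, most kinase and STAT genes were lower. The test called 7 of 11 JAK and STAT genes lower and 1 higher, with 3 not passing, and their median log2 fold change was -0.26. Of all tested genes, 15.1% were called lower. Between the same libraries 10 of 14 pan T cell markers fell, with a median log2 fold change of -0.32. Jak3, the kinase of the common gamma chain, fell by 0.46 on the log2 scale (SE 0.05), from 228 and 234 to 162 and 173 CPM, and Stat5a, a main STAT of interleukin 2, fell by 0.49 (SE 0.07), from 141 and 125 to 92.3 and 97.6 CPM. Stat5b fell by 0.31 (SE 0.06), Jak1 by 0.26 (SE 0.05) and Stat3, the STAT of interleukin 6, by 0.26 (SE 0.06). Adjusted p in edgeR ran from 0.00512 (Jak3) to 0.0243 (Stat3) for these 5. Of the 11, 3 were called lower without WT 1, 2 without cKO 1 and 2 without cKO 2. In those 3 fits in turn, edgeR's adjusted p was 0.0578, 0.0558 and 0.0581 for Stat5b, 0.0627, 0.0700 and 0.0662 for Jak1 and 0.112, 0.0702 and 0.127 for Stat3.

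Cytokine receptor chains moved both ways, with 11 of the 24 tested (of 27 in the table) lower, 6 higher and 7 not passing (median log2 fold change -0.15). Over all tested genes the shares were 15.1% lower and 16.5% higher. For the interleukin 2 receptor, to which CIS binds, the alpha chain gene Il2ra rose by 0.38 (SE 0.06), the common gamma chain gene Il2rg fell by 0.33 (SE 0.05), and the beta chain gene Il2rb, at 1120 and 968 CPM in WT and 904 and 1070 CPM in cKO, did not pass (log2 fold change -0.08, SE 0.11). Of the interleukin 6 receptor, a SOCS3-controlled complex, Il6ra fell by 0.68 (SE 0.08), whereas the gp130 gene Il6st, at 313 and 248 CPM in WT and 249 and 280 CPM in cKO, did not pass (log2 fold change -0.08, SE 0.12). Both interferon gamma receptor genes, whose signal SOCS1 limits, fell, Ifngr1 by 0.66 (SE 0.09) and Ifngr2 by 0.85 (SE 0.11). The 4 chains with the smallest p were Il12rb1, which fell by 0.93 (SE 0.06), Il12rb2, which rose by 1.47 (SE 0.15), Il9r, which fell by 0.95 (SE 0.10), and Csf2rb, the beta chain shared by interleukins 3 and 5, which rose by 1.00 (SE 0.11). Called genes named here had edgeR adjusted p between 0.00244 (Il12rb1) and 0.00800 (Il2rg). Csf2rb is also expressed by neutrophils and basophils, whose marker sums were higher in the same libraries.

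Of 12 elongin, cullin, RING and neddylation genes listed as ligase partners, 1 was called, lower in cKO, beside 31.6% of all tested genes called. The list is wider than the Cullin 5 ligase and includes Cul2 and Rbx1. Their median log2 fold change was 0.00 (-0.02 with RLE and 0.02 with upper-quartile scaling), and 9 of the 11 that did not pass lay within 0.1 of 0. Cul5, the scaffold of the SOCS ligase, measured 74.3 and 65.4 CPM in WT and 66.5 and 69.6 CPM in cKO (95% interval of the log2 fold change -0.22 to 0.15). The elongin B gene Elob measured 63.5 and 64.4 CPM in WT and 65.3 and 65.7 CPM in cKO (-0.08 to 0.15). The 1 that fell was Arih2, a ligase that works with Cullin 5 (-0.36, SE 0.06, edgeR adjusted p = 0.0105), and without cKO 1 it was not called (0.0532). Its relative Arih1 had a log2 fold change of -0.16 (edgeR adjusted p = 0.0588), and was called with RLE scaling (0.0480). The neddylation genes Nedd8 (0.08) and Dcun1d1 (0.06) did not pass.

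Among the 13 tested SOCS box genes outside the family (of 22 in the table), 2 fell, 2 rose and 9 did not pass (median log2 fold change -0.04). The share called was close to that of all tested genes, 31.6%. Spsb1, a SPRY domain protein gene, fell by 0.73 (SE 0.11, edgeR adjusted p = 0.00698), and Wsb1, a WD repeat protein gene, by 0.44 (SE 0.07, edgeR adjusted p = 0.00807). The ankyrin repeat genes Asb7 and Asb13 rose by 0.40 and 0.23. Both of these calls ended without WT 1 (edgeR adjusted p = 0.0665 and 0.162) and without cKO 1 (0.0592 and 0.202). Asb13 was also not called with DESeq2 (adjusted p = 0.274), without WT 2 (edgeR adjusted p = 0.104) or without cKO 2 (0.108).

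Genes listed as other inhibitors of JAK-STAT signalling, a wide list that also holds adaptor genes such as Sla2 and Dok2, were lower or did not pass. The test called 10 of 17 lower and 0 higher (median log2 fold change -0.24), beside 15.1% lower and 16.5% higher of all tested genes. The adaptor gene Sla2 fell by 0.72 (SE 0.08), from 32.6 and 30.1 to 18.5 and 19.5 CPM, and Dok2 by 0.31 (SE 0.05). The phosphatase genes Ptpn1 and Ptpn2, whose products act on JAKs and STATs, fell by 0.36 (SE 0.06) and 0.35 (SE 0.06), and edgeR's adjusted p for the 4 ran from 0.00435 to 0.0104. Pan T cell markers had a median log2 fold change of -0.32 between the same libraries. The number called was 4 without WT 1 and 3 without cKO 1. Without WT 1 Ptpn2 had edgeR adjusted p = 0.0538, and without cKO 1 Ptpn1 and Ptpn2 had 0.0530 and 0.0562.

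Genes outside the family that the same STATs are known to induce moved in both directions. In the STAT5 and interleukin 2 list, 8 of 20 fell, 6 rose and 6 did not pass (median log2 fold change -0.09). Beside this, 15.1% of all tested genes were called lower and 16.5% higher. Bcl2, a survival gene, rose by 0.59 (SE 0.05), Myc by 0.68 (SE 0.08) and the granzyme gene Gzmb by 1.41 (SE 0.18). Ptger2, which encodes a receptor for prostaglandin E, fell by 1.18 (SE 0.11), Tnfrsf9, a costimulatory receptor gene, by 0.91 (SE 0.11), and Il10 by 1.51 (SE 0.21). These 6 had edgeR adjusted p between 0.00363 and 0.00608. Summed CD8 T and NK cell markers were also higher in both cKO libraries (130 and 150 CPM in WT, 194 and 207 CPM in cKO). Their part in the Gzmb level was not tested.

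In the STAT3 and interleukin 6 list, 7 of 15 fell, 2 rose and 6 did not pass (median log2 fold change -0.39). For all tested genes the shares were 15.1% lower and 16.5% higher. The called genes named here were lower, as Socs3 was. Junb, an AP-1 gene, fell from 3640 and 3240 to 1460 and 1900 CPM (log2 fold change -1.03, SE 0.13). Rora, a nuclear receptor gene, fell by 0.95 (SE 0.11), the kinase gene Pim1 by 0.83 (SE 0.10) and the TNF receptor gene Tnfrsf1b by 0.81 (SE 0.10), with edgeR adjusted p between 0.00489 and 0.00543. Pim1 is also in the STAT5 list.

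In the list of interferon-induced genes, 10 of 22 rose, 3 fell and 9 did not pass (median log2 fold change 0.17), whereas Socs1, an interferon-induced member, was lower. Over all tested genes 16.5% were called higher and 15.1% lower. The guanylate binding protein genes Gbp2, Gbp3 and Gbp5 rose by 0.46 (SE 0.07), 0.41 (SE 0.05) and 0.37 (SE 0.05), and the chemokine gene Cxcl10 fell by 0.94 (SE 0.12), with edgeR adjusted p between 0.00524 and 0.00689. Irf1, an interferon regulatory factor that can bind motifs of the kind shown in the Socs1 sequence, measured 326 and 342 CPM in WT and 262 and 280 CPM in cKO, with a log2 fold change of -0.30 (SE 0.06, edgeR adjusted p = 0.0126). Its call ended without WT 2 (0.0567) or cKO 1 (0.0718). The list had 7 called genes without WT 1, 7 without WT 2 and 6 without cKO 1.

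Among the 16 tested substrates and partners reported for SOCS proteins (of 17 in the table), 6 fell, 3 rose and 7 did not pass (median log2 fold change -0.05). Shares over all tested genes were 15.1% lower and 16.5% higher. Irs2, an insulin receptor substrate gene, fell from 174 and 150 to 60.0 and 81.6 CPM (log2 fold change -1.19, SE 0.15). Plcg1, the phospholipase that CIS binds, fell by 0.46 (SE 0.06), and Lck, a SOCS6 partner and also 1 of the pan T cell markers, by 0.36 (SE 0.06). The receptor kinase genes Kit and Flt3 rose by 0.85 (SE 0.09) and 0.57 (SE 0.07). These 5 had edgeR adjusted p between 0.00412 and 0.00792. Kit and Flt3 are known from mast cells and dendritic cells, and the sum of 7 dendritic cell markers, Flt3 among them, was 139 and 141 CPM in WT and 205 and 195 CPM in cKO.

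**Figure D5:**
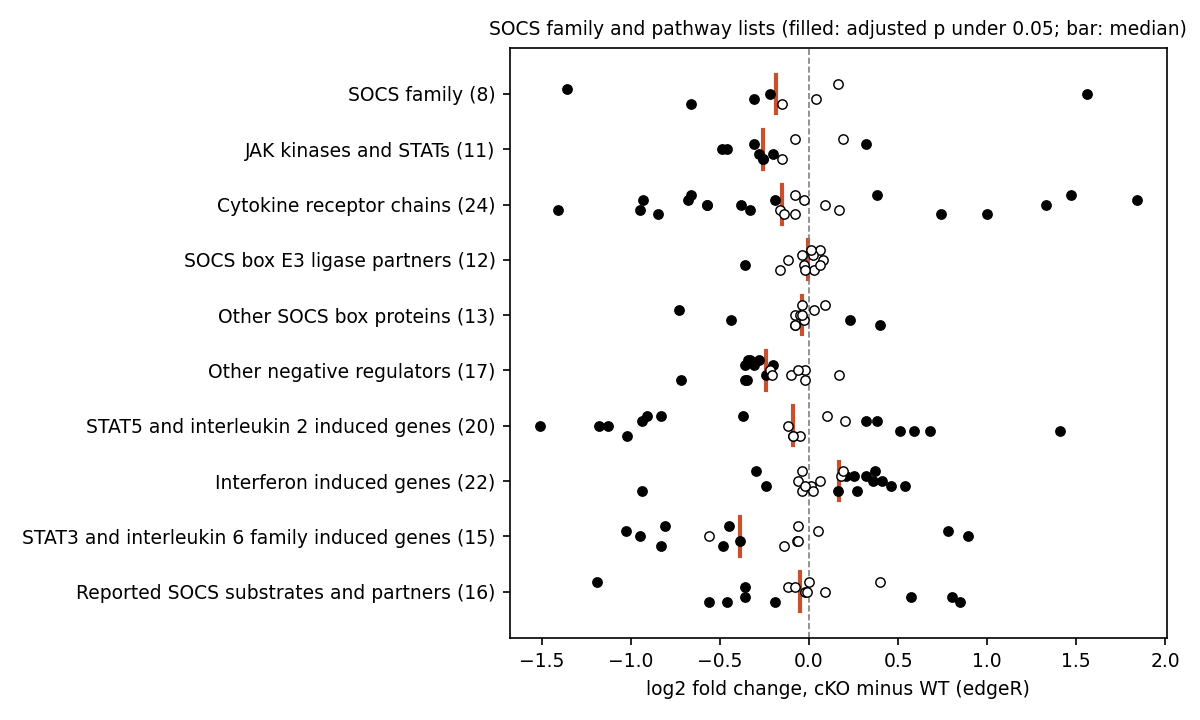
Log2 fold change of cKO against WT (horizontal axis) for each tested member of the SOCS family and of 9 pathway lists (number tested in brackets), filled where the adjusted p was under 0.05, with a bar at each median. The ligase partners cluster around 0, while the SOCS family reaches from -1.36 (Socs3) to 1.56 (Socs2).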

How the data were processed

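RNA sequencing counts of 4 libraries were used. Whole-number counts per gene, not normalized, were deposited by the authors as a single table. The submitters' processing notes name the build mm10. Not given in the sources used here are the aligner, the counter, the annotation and whether strand was used. With R 4.3.3 and edgeR 4.0.16, filterByExpr at a count of 10 and a total of 15 kept 13861 genes, and the group difference was tested 2-sided by glmQLFit and glmQLFTest with TMM scaling, no other term and Benjamini-Hochberg adjustment over all of them. SEs were obtained from the fold change and the F statistic, and 95% intervals from the degrees of freedom of the fit. The procedure was tested on simulated data with known changes.

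Exon lengths came from the GENCODE annotation of GRCm38, matched by symbol. Lists were described by counts and medians, with no set test. From each list up to 4 tested genes with the smallest p and a mean of at least 1 CPM were named, with partners of the members named as background. Prlr, Ghr, Gzmb, Il10 and Irf1 were chosen after their values were seen, as were the overlapping genes and the motifs searched. The members and lists were chosen with earlier results of these data known. Lists share genes, among them Il2ra, Stat2, Usp18 and Pim1. Results of 1 gene that counts in the lists are not reported here. Alternatives comprised DESeq2 1.42.0, voom (limma 3.58.1), scaling by RLE or upper quartile, 2 other filters on low counts, the replicate number as a block, a threshold of 0.10, and each library left out in turn.

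Before TMM scaling, a single count corresponds to 0.0281 to 0.0352 CPM. A count of 0 allows up to 0.0844 to 0.105 CPM (3 counts), also before TMM scaling and for counting error only.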

Additional observations from a re-analysis of the deposited data

How the results depend on the processing

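Across the 12 alternatives tried for each member, Socs2 (log2 fold change 1.43 to 1.69), Socs3 (-1.68 to -1.11) and Cish (-0.76 to -0.55) kept their direction and their call, and Socs6 (0.01 to 0.06) was called in none. Socs1 lost its call in 3 and Socs7 in 5, while Socs4 gained one in 2 and Socs5 in 1. These 12 leave out the threshold of 0.10 and include a block of crossed replicate numbers, added after the data were seen. The gain of Socs5 and 1 of the 2 gains of Socs4 came with that block. The number of members called was 5, 3 to 5 when a library was left out, and 4 to 6 with the other scalings, tests, filters and the threshold of 0.10. A group left with 1 library was assumed to vary like the other. Over all genes, 4380 were called, 1869 to 2747 without 1 library and 2876 with DESeq2, and 1680 of the 4380 were called in all 4 fits that leave out a library. Upper-quartile scaling gave 2546 higher and 1877 lower genes and RLE 2133 and 2212. Leaving out a library, the log2 fold change of Il2rb ran from -0.21 to 0.04, positive without WT 1 (0.03) and cKO 1 (0.04), that of Il6st from -0.24 to 0.10 and that of Cul5 from -0.13 to 0.06, both positive without WT 1, and none of these values passed the test. The cause of these differences was not tested.

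The libraries of the groups share only a replicate number. Deviations from the group means correlated at -0.32 between equally numbered libraries over 13861 genes, which are not independent. With the replicate number as a block, 3 members (Socs2, Socs3 and Cish) and 2292 genes were called. A block of crossed numbers, added after the data were seen, called 7 members and 6713 genes. The members had at least 736 counts in every library, and the part of counting error in their SEs was not tested.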
